A study of Homo sapiens with 8 samples.

Results

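Trastuzumab, an antibody against the receptor HER2, was compared with PBS over BT474 and SKBR3 cells together, so that the change carried by both breast cancer lines could be measured in 1 fit. The fit held 7 of the 8 labelled arrays, namely all 4 trastuzumab arrays and the 3 distinct PBS arrays (BT474 PBS replicates 1 and 2 and SKBR3 PBS replicate 2), with cell line as a covariate. The array labelled SKBR3 PBS replicate 1 was left out, since every value in it repeats BT474 PBS replicate 1, and the SKBR3 control therefore rests on 1 array. Trastuzumab was given at 6 μg/mL, and RNA was taken after 144 h with the antibody or with PBS. BT474 is labelled ER+, HER2+ and PR+, and SKBR3 ER-, HER2+ and PR+, although the methods of the study give SKBR3 as PR-. Each line is a single cell line in culture, and an array measures RNA pooled over the cells of a plate, so that fewer cells with a miRNA and less of it per cell cannot be told apart.

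The arrays carried 2006 human miRNAs, read in 1 colour. The scanner software gives each miRNA a summed signal in arbitrary intensity units, set to 0.1 where it is not detected. Between 201 and 256 miRNAs were detected per array, 1699 were detected on no array of the fit and 173 on all 7. For the fit, signals were brought to a shared distribution by quantile normalization, a floor of 10 was set and log2 was taken, which left 305 miRNAs to test. The fit weights the BT474 difference by 0.6 and the SKBR3 difference by 0.4. Row 2 of the slide held every PBS array and row 1 every trastuzumab array, and treatment and row cannot be told apart. Among the cell type markers, 7 of 7 epithelial miRNAs were detected in BT474 (summed signal 32163 to 39244 on PBS and 37391 to 43555 on trastuzumab arrays) and 2 of 7, miR-200c-3p and miR-141-3p, in SKBR3 (14138 on the PBS array and 12720 and 17623 on the trastuzumab arrays). None of the 5 stromal, 2 neuronal or 1 liver markers was detected. Of 6 blood markers, miR-451a was detected on 1 BT474 trastuzumab array, at 57.3. The muscle miRNA miR-1 was detected in BT474 at 127 to 173 on PBS arrays and at 286 to 382 on trastuzumab arrays, and the endothelial miR-126-3p did not exceed 88.5. No blood, muscle or endothelial marker was detected in SKBR3.

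A miRNA guides Argonaute proteins to mRNAs, mostly in their 3′ untranslated regions, by pairing of its seed, the bases 2 to 8 from its 5′ end, and lowers translation and stability of the mRNA. HER2 drives growth of these lines through PI3K-AKT and MAPK signalling, which trastuzumab restrains. miRNAs with numbers of 4 digits were annotated late, largely from deep sequencing, and the targets of most are little studied.

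The following mature sequences belong to the miRNAs whose level differed between trastuzumab and PBS in the common fit at an adjusted p under 0.05. They are from RefSeq (GRCh38.p14), read 5′ to 3′, with the seed in capitals, and are shown because the seed sets which mRNAs a miRNA can pair with. Of the 13 such miRNAs, 8 were matched by name.
hsa-miR-2392: uAGGAUGGgggugagaggug
hsa-miR-29c-5p: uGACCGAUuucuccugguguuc
hsa-miR-4750-5p: cUCGGGCGgaggugguugagug
hsa-miR-4481: gGAGUGGGcuggugguu
hsa-miR-4701-3p: aUGGGUGAuggguguggugu
hsa-miR-1268b: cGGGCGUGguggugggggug
hsa-miR-1268a: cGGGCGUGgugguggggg
hsa-miR-4530: cCCAGCAGgacgggagcg

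The seeds were different except for miR-1268a and miR-1268b, whose first 18 bases are identical, so that their signals cannot be told apart with certainty. In GRCh38.p14, miR-2392 lies at chr14:100814551-100814570 on the plus strand, outside any gene of the annotation other than its own. miR-29c-5p lies at chr1:207801903-207801924 on the minus strand inside the non-coding gene MIR29B2CHG. The other sequences lie inside protein-coding genes in 4 cases, with miR-4750-5p (chr19:49888177-49888198) in TBC1D17, miR-4481 (chr10:12653181-12653197) in CAMK1D, miR-4701-3p (chr12:48771980-48771999) in ADCY6 and miR-1268b (chr17:80098831-80098850) in CCDC40. miR-1268a (chr15:22225308-22225325) and miR-4530 (chr19:39409629-39409646) lie outside other annotated genes. The span of the non-coding gene LOC124904743 also covers miR-4750-5p. The annotation used gives gene spans only, and exons and introns were not told apart. Strands were not compared, so a gene named here need not be transcribed together with the miRNA.

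With trastuzumab 10 miRNAs rose and 3 fell across both lines. Of the 305 miRNAs tested in the additive fit, 3.28% were higher, 0.984% lower and 4.26% either at a Benjamini-Hochberg adjusted p under 0.05 (limma). The 10 that rose split into 3 that were detected on every trastuzumab array and on no PBS array, 3 that rose by between 2.86-fold and 3.70-fold, and 4 that rose by about 2-fold, from 2.01-fold to 2.15-fold. The 3 that fell, miR-210, miR-4530 and miR-425-5p, changed by less, to between 0.648 and 0.714 of the PBS level. With the replicate number, which coincides with the slide column, as a block, none of the 13 kept an adjusted p under 0.05 (limma). In that fit 35 of the 305 tested had an unadjusted p under 0.05 (limma), all 13 among them. The 13 were chosen by p in these same arrays, so this is no separate support. All 13 were separated between the treatments within each line with no overlap. Over all 305 tested, 27 were so separated upwards (8.85%) and 39 downwards (12.8%). None of the 13 showed a difference between the lines in the interaction test, which 49 of the 305 passed (16.1%). The additive fit counts a difference between the lines as residual spread, so both outcomes are partly fixed by the call. The median change of the 173 miRNAs detected on all 7 arrays was -0.03 on the log2 scale, with quartiles at -0.27 and 0.21.

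The 3 miRNAs detected on every trastuzumab array and on no PBS array were miR-2392, miR-4472 and miR-29c-5p. miR-2392 comes from the large miRNA cluster of 14q32. Its summed signal was 0.1 on the 3 PBS arrays, 81.0 and 247 on the BT474 trastuzumab arrays and 231 and 207 on the SKBR3 trastuzumab arrays. It passed the common test at a limma adjusted p of 0.0113. The brighter of its probes read 193 and 172 above background on the BT474 PBS arrays and 177 on the SKBR3 PBS array, and 382 and 1166 in BT474 and 1092 and 974 in SKBR3 after trastuzumab. The mean reading of that probe was 4.24-fold higher in BT474 and 5.83-fold higher in SKBR3, with no normalization between arrays. Few of its spots were well above background on PBS arrays, so the ratio is no measure of the fold of the miRNA. The other probe of miR-2392 read from -30.5 to 66.0 and had no spot well above background on any array.

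miR-4472, a late-annotated miRNA, followed the same pattern. It read 0.1 on the 3 PBS arrays, 104 and 220 on the BT474 trastuzumab arrays and 144 and 154 on the SKBR3 trastuzumab arrays. It had the smallest adjusted p of the additive fit (limma adjusted p = 0.00481). Its brighter probe read 208 and 210 above background on the BT474 PBS arrays against 490 and 1040, and 188 against 680 and 726 in SKBR3, 3.66-fold and 3.74-fold higher by the means. The other probe of miR-4472 had no spot well above background on any array. miR-29c-5p is the less abundant arm of the miR-29c hairpin, whose other arm, miR-29c-3p, is known to repress collagen and other extracellular matrix mRNAs. It read 0.1 on the PBS arrays, 51.5 and 83.4 in BT474 and 63.1 and 63.2 in SKBR3 after trastuzumab (limma adjusted p = 0.0259). These signals are low. Its brighter probe was 1.52-fold higher in BT474 and 1.69-fold higher in SKBR3 by the means, and was well above background in most of its spots on 1 array only. No miRNA was detected on every PBS array and on no trastuzumab array.

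Fitted changes for these 3 miRNAs depend on the floor that stands in for an undetected signal. The additive change was 4.11 ± 0.41 (SE) on the log2 scale for miR-2392, 3.84 ± 0.24 for miR-4472 and 2.39 ± 0.33 for miR-29c-5p. Over the other ways of processing the arrays it ran from 0.74 to 7.43 for miR-2392, from 0.51 to 7.16 for miR-4472 and from 0.03 to 5.71 for miR-29c-5p, always upwards. Of 20 alternatives, an adjusted p under 0.05 was kept in 13 for miR-2392, 16 for miR-4472 and 9 for miR-29c-5p (limma). Of the 13 called miRNAs, miR-29c-5p alone lost its call with normexp background correction (limma adjusted p = 0.809) and with a floor of 30 (0.197).

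miR-4750-5p, miR-181d and miR-4481 were detected on all 7 arrays and had the next largest increases. miR-4750-5p read 61.2 and 73.0 with PBS against 208 and 352 with trastuzumab in BT474, and 73.7 against 322 and 287 in SKBR3. Its common change was 1.89 ± 0.25 (SE, log2), a 3.70-fold increase (limma adjusted p = 0.0234). The change was 2.28 ± 0.19 in BT474 and 1.31 ± 0.23 in SKBR3, a difference between the lines that did not pass the interaction test (limma adjusted p = 0.130).

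miR-181d belongs to the miR-181 family, known for its part in lymphocyte development and T cell receptor signalling. It read 102 and 186 on the BT474 PBS arrays against 307 and 566 after trastuzumab, and 76.2 on the SKBR3 PBS array against 384 and 362. Every trastuzumab array was above every PBS array of either line. The common change was 1.52 ± 0.22 (SE, log2), or 2.86-fold (limma adjusted p = 0.0288), and the lines were close, at 1.54 ± 0.32 in BT474 and 1.48 ± 0.39 in SKBR3. miR-4481 had the same 2.86-fold increase, of 1.52 ± 0.25 (SE, log2, limma adjusted p = 0.0370). It read 81.1 and 76.7 on PBS and 143 and 335 on trastuzumab arrays in BT474, and 59.8 against 286 and 301 in SKBR3. The BT474 trastuzumab replicates were far apart for this miRNA, and its BT474 change of 1.57 carried an SE of 0.36.

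miR-1268a, miR-1268b, miR-4701-3p and miR-3656 rose by close to 2-fold at moderate signal. miR-1268a read 353 and 407 on the BT474 PBS arrays against 751 and 1050, and 327 against 965 and 906 in SKBR3. miR-1268b read 370 and 432 against 785 and 1208 in BT474, and 353 against 1084 and 1011 in SKBR3. The members of the pair rose by 1.04 ± 0.08 and 1.10 ± 0.12 (SE, log2, limma adjusted p = 0.00675 and 0.0119), and for both the treatments did not overlap in either line.

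miR-4701-3p read 411 and 472 on PBS and 827 and 1200 on trastuzumab arrays in BT474, and 265 against 979 and 911 in SKBR3. It rose by 1.11 ± 0.15 (SE, log2, limma adjusted p = 0.0234). miR-3656 read 240 and 281 against 551 and 745 in BT474, and 243 against 644 and 619 in SKBR3, a change of 1.01 ± 0.09 (SE, log2, limma adjusted p = 0.0111). In each of these 4 miRNAs the trastuzumab arrays of both lines lay above all PBS arrays on the scanner's own scale. That scale ran higher after trastuzumab for most miRNAs. With no normalization between arrays, the median common change was 0.28 (log2) over the 173 miRNAs detected on every array. Of these 173, 32 had values below 0. The common changes of the 4 miRNAs were 1.33 to 1.44 without normalization. How many of all miRNAs were so separated on the scanner's scale was not counted. Of the 20 probes of the 10 raised miRNAs, 15 were well above background on some array. All 15 read higher after trastuzumab in both lines. These probes feed the summed signals by which the miRNAs were called, so their direction is no separate evidence.

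**Figure D1:**
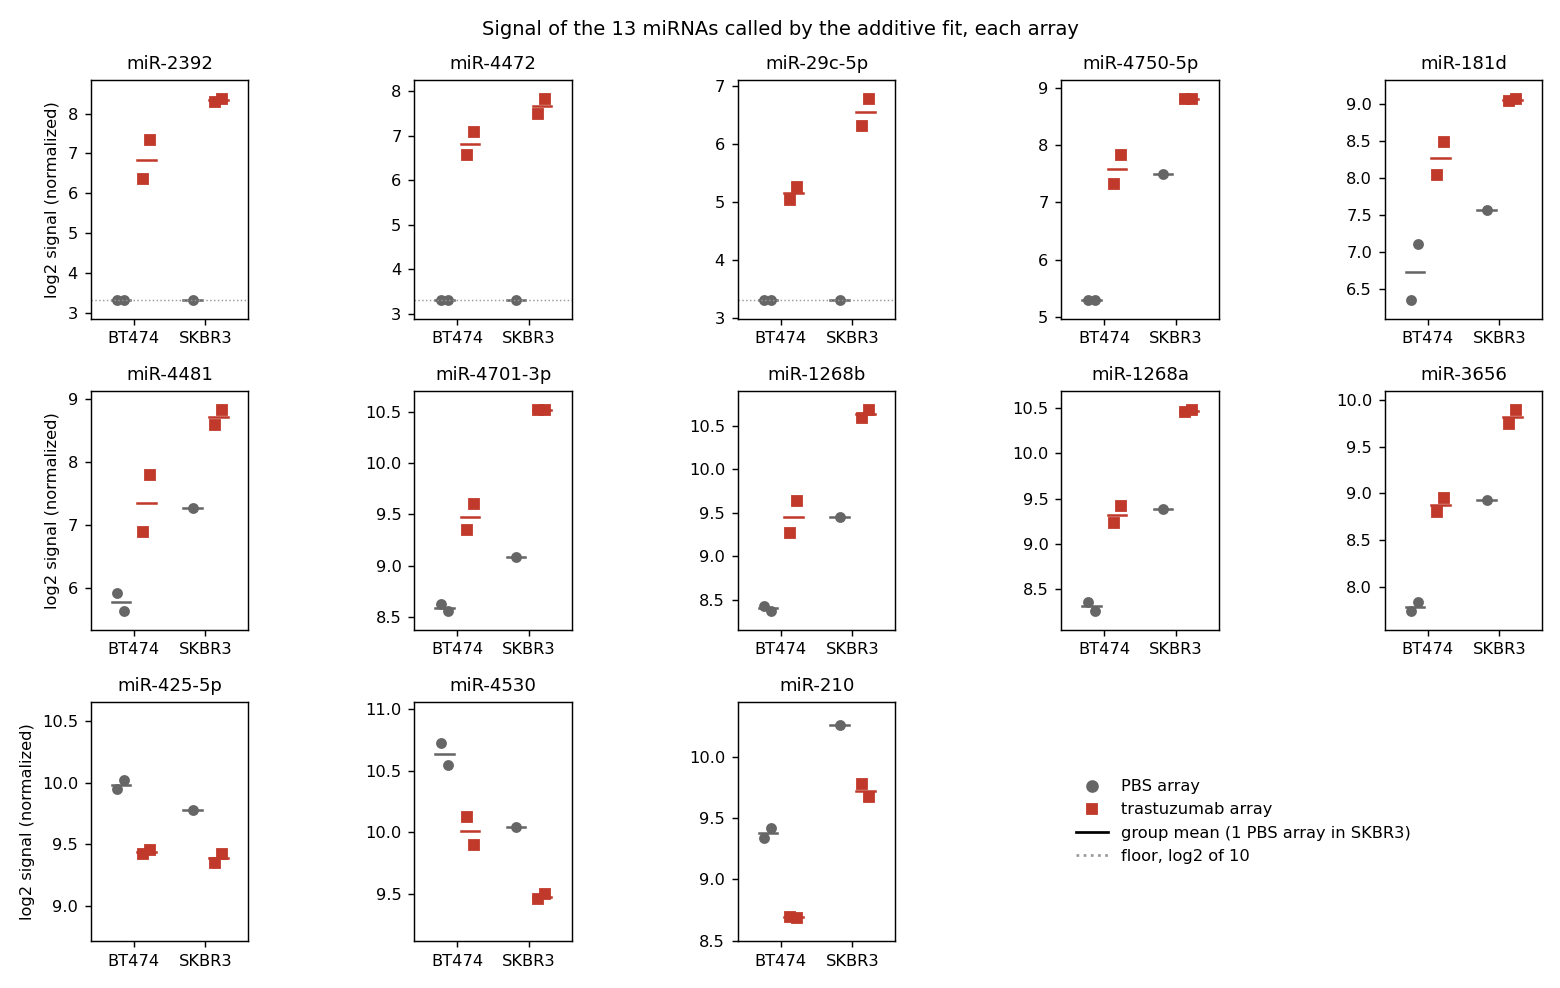
Normalized log2 signal of the 13 miRNAs called by the additive fit on each of the 7 arrays, with PBS arrays as grey circles, trastuzumab arrays as red squares and the group mean as a line (the SKBR3 PBS group is 1 array). The 10 raised miRNAs are in the upper 2 rows and the 3 lowered ones in the bottom row, the treatments do not overlap within a line in any panel, and the PBS arrays of miR-2392, miR-4472 and miR-29c-5p lie at the floor of log2 10.

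Of the 3 miRNAs that fell, miR-210 and miR-425-5p are widely studied. miR-210 is the miRNA most consistently induced by hypoxia, through the transcription factor HIF-1. On the normalized log2 scale it was at 9.34 and 9.42 on the BT474 PBS arrays and 8.70 and 8.69 after trastuzumab, and at 10.26 on the SKBR3 PBS array and 9.78 and 9.67 after trastuzumab. Its common change was -0.63 ± 0.08 (SE, log2), 0.648 of the PBS level (limma adjusted p = 0.0201). miR-425-5p, from a hairpin transcribed together with miR-191, was at 9.95 and 10.02 against 9.42 and 9.45 in BT474 and at 9.78 against 9.35 and 9.42 in SKBR3. It fell by 0.49 on the log2 scale with an SE of 0.07 (limma adjusted p = 0.0298). miR-4530 was at 10.72 and 10.55 against 10.12 and 9.90 in BT474, and at 10.05 against 9.45 and 9.50 in SKBR3, and changed by -0.60 ± 0.09 (limma adjusted p = 0.0298).

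These 3 decreases were called on the quantile normalized scale, but on the scanner's own scale none was separated in both lines. miR-210 read 716 and 867 on PBS and 507 and 657 on trastuzumab arrays in BT474, but 602 on PBS and 659 and 564 on trastuzumab arrays in SKBR3. None of the 6 probes of the 3 miRNAs, all well above background, read lower after trastuzumab in both lines, and 1 probe of miR-210 averaged 4989 on BT474 trastuzumab replicate 1 against 985 to 1573 on the other arrays. With no normalization between arrays the common change of miR-210 was -0.26 (limma adjusted p = 0.440), that of miR-425-5p -0.18 (0.517) and that of miR-4530 -0.14 (0.563). Scaled to 3 spike-in controls, the values were -0.37 (0.217), -0.28 (0.254) and -0.25 (0.340), and scaled to the 75th percentile -0.60, -0.52 and -0.48 (0.240 for each). The summed signal of all detected miRNAs ran from 446651 to 530275 on BT474 PBS arrays and from 507327 to 606660 on BT474 trastuzumab arrays, and from 246495 on the SKBR3 PBS array to 320578 and 284435 on SKBR3 trastuzumab arrays. Its part in the decreases was not tested beyond these scalings.

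**Figure D2:**
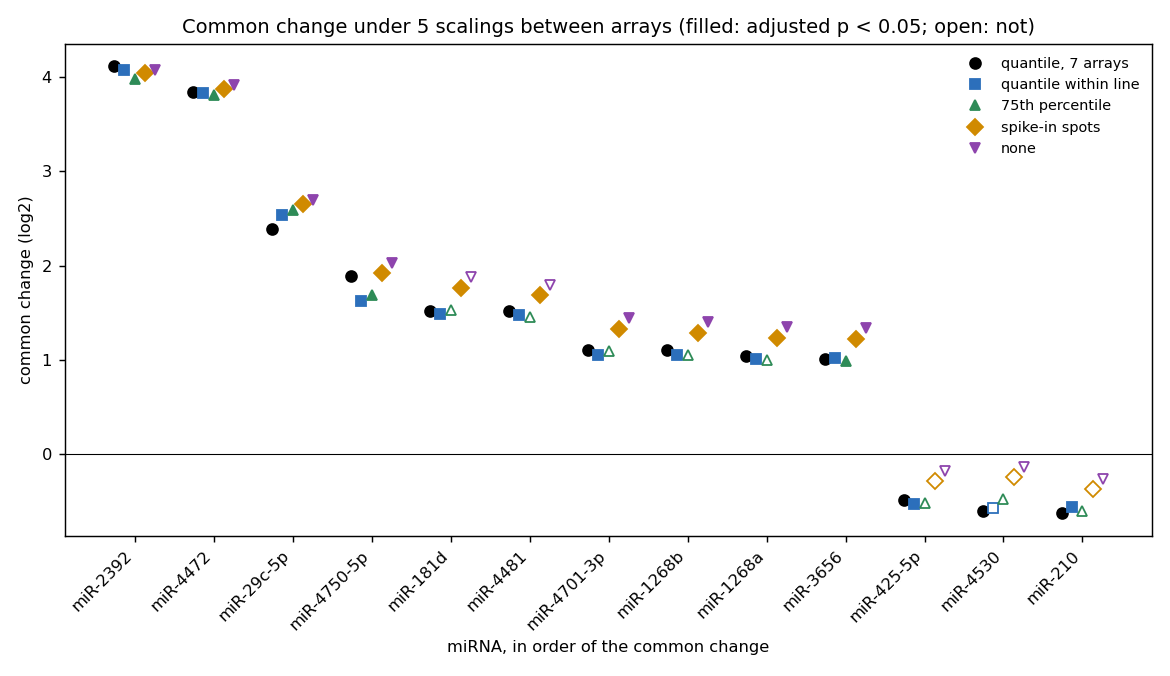
Common change of the 13 miRNAs (log2, trastuzumab minus PBS) under 5 ways of scaling between arrays, with filled symbols where the limma adjusted p was under 0.05 and open symbols where it was not. The 10 raised miRNAs had changes of 0.99 or more in each scaling shown, and the call of 5 of them was lost with the 75th percentile and of miR-181d and miR-4481 with no scaling, whereas miR-210, miR-4530 and miR-425-5p stayed below 0 and lost the call under 3 scalings each, with miR-4530 losing it also under quantile normalization within each line.

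An additive fit can call a miRNA that moved in 1 line, so each line was also tested with its own contrast. At the thresholds of the study, an unadjusted p under 0.05 with a fold above 2, the additive fit gave 16 higher (5.25% of the miRNAs tested) and 2 lower (0.656%). Of these 18, 10 were the raised miRNAs above, and 5 were detected in BT474 alone. The 5, named after their values were seen, were miR-499a-5p, miR-450a-5p and miR-181c-5p, which were higher, and miR-1825 and miR-4290, which were lower.

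The stricter question, a change in the same direction in each line, was met by 22 miRNAs (7.21%), where the larger of the per-line p values was under 0.05 (limma, unadjusted). The SKBR3 contrast has 1 PBS array, so its p takes its spread from the other groups and assumes that this array varies like them. Of these, 12 were higher (3.93%) and 10 lower (3.28%), and all 13 miRNAs of the additive fit were among them. After adjustment of that larger p, 1 remained, miR-4472 (limma adjusted p = 0.0407). The other 9 of the 22, named as members of this count, had smaller changes. miR-23b-3p rose by 0.36 ± 0.04 in BT474 and 0.21 ± 0.05 in SKBR3 (SE, log2), and let-7i-5p, of the tumour suppressor family let-7, by 0.18 ± 0.05 and 0.31 ± 0.07. miR-342-3p, from an intron of EVL, fell by 0.44 in BT474 and by 0.36 in SKBR3, and miR-183-5p, of the miR-183/96/182 cluster, fell by 0.27 and by 0.37. miR-660-5p fell by 0.30 and by 0.39, miR-99b-5p, whose family represses mTOR, by 0.23 and by 0.15, and miR-4443 by 1.00 and by 0.41. The scanner's own scale ran higher after trastuzumab for most miRNAs. On that scale, miR-23b-3p was separated in the same direction in both lines, but none of the 7 that fell was. In SKBR3 the scanner signals of miR-342-3p, miR-4443, miR-183-5p, miR-660-5p and miR-99b-5p were higher on both trastuzumab arrays than on the PBS array. For miR-342-3p they were 129 with PBS and 162 and 144 with trastuzumab. Those of miR-3676-5p overlapped in SKBR3, and those of miR-130b-3p were lower. For miR-3676-5p (-1.06 and -0.45) and miR-130b-3p (-0.13 and -0.69) the size of the fall differed between the lines (limma interaction adjusted p = 0.0198 and 0.0153).

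The additive threshold fell between miR-4481 (adjusted p = 0.0370) and miR-3676-5p (adjusted p = 0.0525), followed by miR-342-3p (0.0622) and miR-4443 (0.0709), all by limma. Without regard to p, 27 miRNAs (8.85%) were higher and 39 (12.8%) lower on every trastuzumab array than on every PBS array of the same line, in both lines. A total of 73 miRNAs had an unadjusted p under 0.05 in the additive fit.

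Across the 173 miRNAs detected on all 7 arrays the changes in the lines had a Spearman correlation of 0.389 and a Pearson correlation of 0.400, and 105 had the same sign. The points share arrays, normalization and slide rows, and miRNAs are not independent replicates. At these 173, changes above 2-fold in the additive fit were seen for 7 miRNAs, all of them raised ones described above. The interaction of line and treatment passed a limma adjusted p under 0.05 for 49 miRNAs (16.1%). Of these, 23 were detected in 1 line only, so that the other line had no measurable change. Another 21 were detected on all 7 arrays. Of those 21, 14 did not share a sign between the lines, counting miR-30d-5p, whose SKBR3 change was 0.

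**Figure D3:**
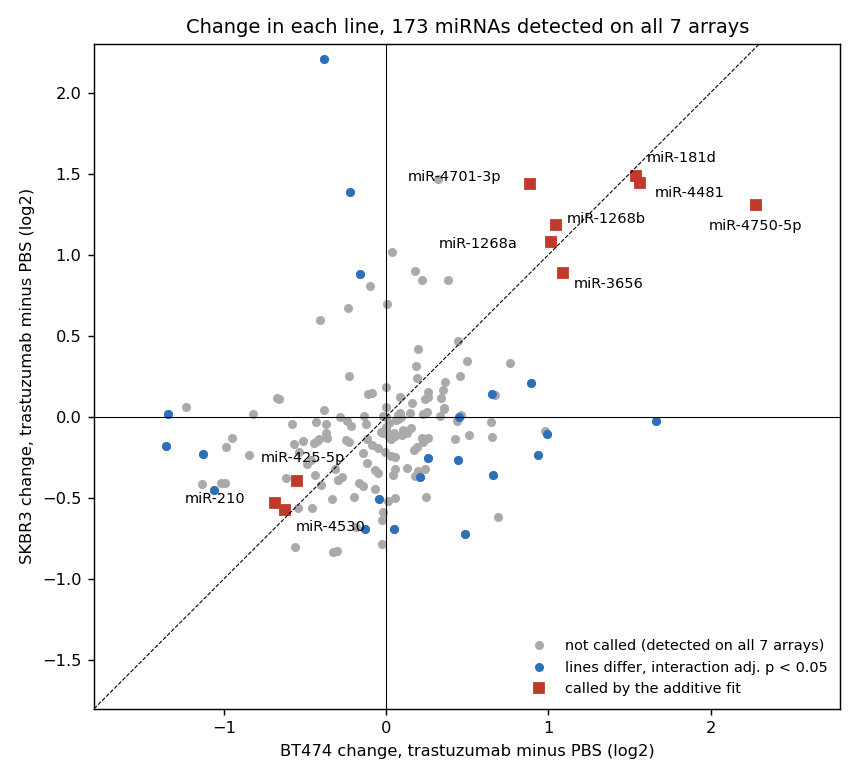
Change in SKBR3 against change in BT474 (both log2, trastuzumab minus PBS) for the 173 miRNAs detected on all 7 arrays, with the called miRNAs as red squares, those whose lines differed in the interaction test in blue and a dashed line of equal change. The 7 raised miRNAs detected on all arrays lie in the upper right, each at 0.89 or more in both lines, and the 3 lowered ones lie in the lower left among uncalled miRNAs.

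The relatives of miR-181d and miR-29c-5p that were detected had smaller common values. In the miR-181 family, miR-181a-5p read 2091 and 2537 on the BT474 PBS arrays and 3373 and 4030 after trastuzumab, and 732 against 1114 and 1010 in SKBR3. After normalization its common change was 0.14 ± 0.08 (limma adjusted p = 0.299), and that of miR-181b-5p was 0.03 ± 0.06 (limma adjusted p = 0.764), against 1.52 for miR-181d. miR-181c-5p, which is transcribed with miR-181d, was detected on the BT474 trastuzumab arrays alone, at 67.0 and 90.3, and on no PBS array of BT474 and no SKBR3 array.

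In the miR-29 family the abundant arms had larger changes in BT474 than in SKBR3 after normalization. miR-29c-3p read 3224 and 4205 on BT474 PBS and 5039 and 7495 on trastuzumab arrays, and 4735 against 7425 and 6400 in SKBR3. Its normalized change was 0.65 ± 0.06 (SE, log2) in BT474 and 0.14 ± 0.07 in SKBR3. miR-29a-3p read 1116 and 1434 against 2614 and 3680 in BT474, and 3014 against 4656 and 4175 in SKBR3. After normalization it changed by 0.89 ± 0.08 in BT474 and by 0.21 ± 0.10 in SKBR3. For both the lines differed (limma interaction adjusted p = 0.0410 for each), and their common changes of 0.45 and 0.62 missed the threshold (limma adjusted p = 0.169 and 0.149). The 5p arms of miR-29a and of both miR-29b hairpins were not detected on any array. The other arm of miR-4701, miR-4701-5p, changed by 0.38 ± 0.14 in BT474 and 0.85 ± 0.17 in SKBR3, with a common value of 0.57 ± 0.15 (limma adjusted p = 0.139) beside the 1.11 of miR-4701-3p. miR-425-3p and miR-191-5p, which share the transcript of miR-425-5p, were not detected on any array, and miR-191-3p was detected on the SKBR3 PBS array alone, at 19.3, the lowest detected signal there.

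**Figure D4:**
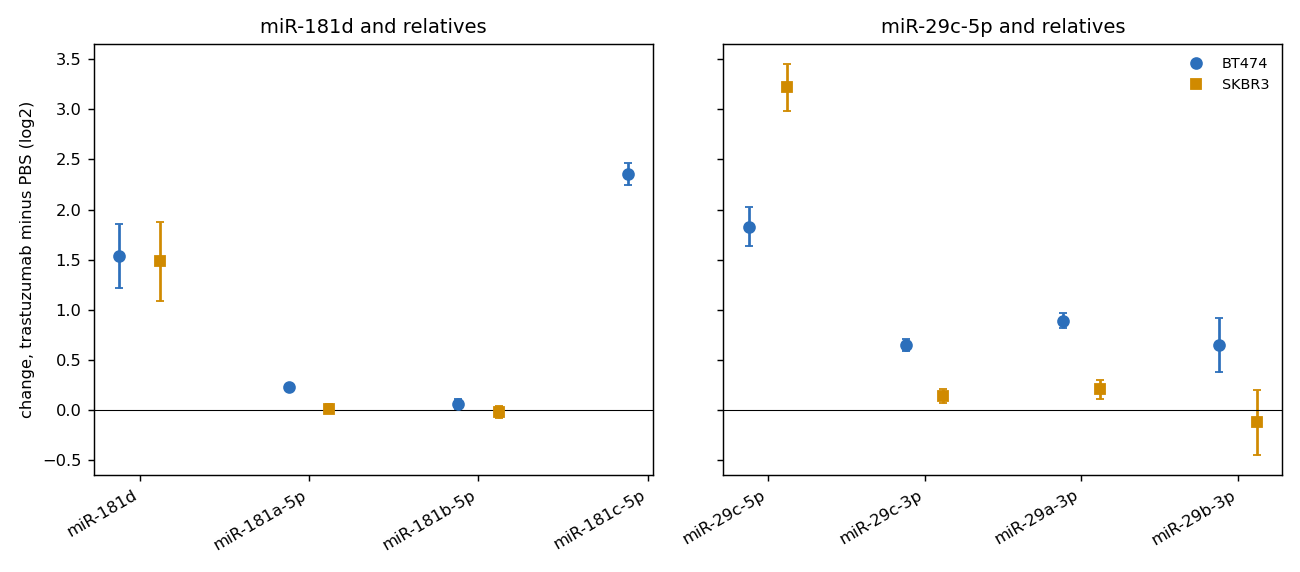
Change in each line (log2, trastuzumab minus PBS, ± SE) for miR-181d and miR-29c-5p and their family members, with BT474 as blue circles and SKBR3 as orange squares and no point where a miRNA was detected on no array of the line. miR-181d and miR-29c-5p rose in both lines, while the SKBR3 values of miR-181a-5p, miR-181b-5p and the 3p arms of miR-29 lay between -0.12 and 0.21.

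Families of better studied miRNAs held few called members and are described beside the median of -0.03 for all 173 miRNAs. Among families with 3 or more members detected on all arrays, the 3 members of the miR-29 family had the highest median, 0.45, with 0.65 in BT474 and 0.14 in SKBR3. The 5 miRNAs of the miR-23/27/24 clusters, known in angiogenesis and metabolism, all had values above 0, from 0.19 to 0.30 with a median of 0.25, and miR-23b-3p met the test in each line. The 5 members of the miR-30 family, among them regulators of autophagy and of the epithelial state, had a median of 0.27, which was 0.45 in BT474 and 0 in SKBR3. Of miR-26a-5p, miR-26b-5p and miR-101-3p, repressors of the chromatin regulator EZH2, none passed the test. The 9 members of let-7 had a median of 0.08, with 7 values above 0. None of the members of these families passed the additive fit at an adjusted p under 0.05.

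The proliferation-linked miR-17-92 cluster and its paralogs had a median below that of all 173. Of 12 members detected on all arrays, 10 had values below 0, with a median of -0.11, beside 95 of all 173. With no normalization between arrays the median was 0.21, with 2 values below 0, against 0.28 for all 173, and 10 of the 12 lay below that median under both. The lowest were miR-18a-5p, at -0.55 ± 0.14 (limma adjusted p = 0.139), and its paralog miR-18b-5p, at -0.50 ± 0.13 (limma adjusted p = 0.139). Their values were alike in the lines, -0.54 and -0.56 for miR-18a-5p in BT474 and SKBR3, and -0.45 and -0.56 for miR-18b-5p. miRNAs annotated from fragments of tRNA, snRNA or Alu elements had a median of -0.48 over 5 members, with miR-1260b lowest at -0.89 ± 0.27 (limma adjusted p = 0.183), a value that rested on BT474 (-1.36) more than SKBR3 (-0.18). Among 1164 miRNAs with numbers of 4 digits, 114 were tested, 8 rose and 1 fell, with a median of -0.20 over the 66 detected on all arrays. Of the 191 other miRNAs tested, 2 rose and 2 fell, with a median of -0.003 over 107. miR-221 and miR-222, linked to endocrine resistance, were not detected.

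**Figure D5:**
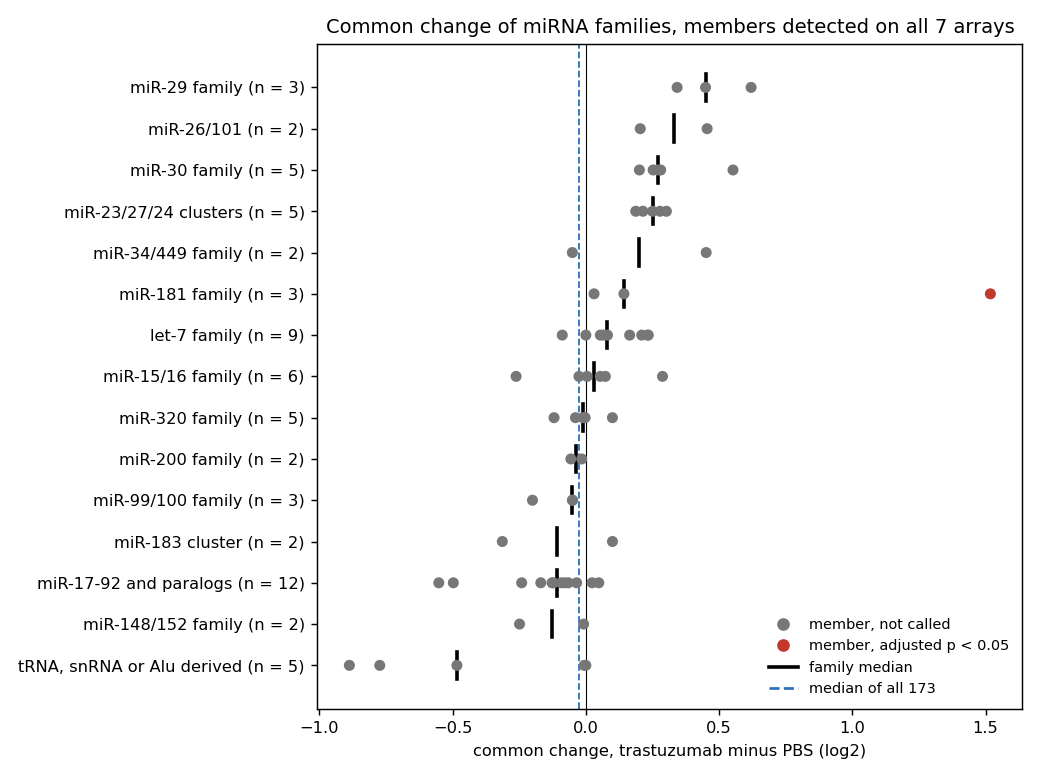
Common change (log2, trastuzumab minus PBS) of the members of miRNA families detected on all 7 arrays, 1 point per miRNA, with the family median as a black bar, the median of all 173 miRNAs as a dashed blue line and called members in red. miR-181d, at 1.52, is the only called member and stands apart from its family, the miR-29, miR-30 and miR-23/27/24 members all lie above 0, and 10 of the 12 members of miR-17-92 and its paralogs lie below it.

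Of 9 miRNAs tied to HER2 or trastuzumab in earlier work, miR-210 fell, a call that was lost under 3 other scalings, and the other 8 did not pass the common test, beside 4.26% of all miRNAs that did. miR-21-5p, which represses PDCD4, was among the brightest miRNAs, at 27204 to 27423 on the BT474 arrays, near the top of the scanner's range, and at 6735 on PBS against 10522 and 9228 after trastuzumab in SKBR3. Its common change was 0.07 ± 0.08 (limma adjusted p = 0.549). miR-26a-5p changed by 0.46 ± 0.15 (limma adjusted p = 0.188), with 0.67 ± 0.10 in BT474 and 0.13 ± 0.13 in SKBR3. miR-30b-5p changed by 0.28 ± 0.13 (limma adjusted p = 0.236), with 0.46 ± 0.09 and 0.01 ± 0.11.

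miR-125a-5p and miR-125b-5p, which target ERBB2 and ERBB3 mRNAs, had changes of opposite sign in the lines after quantile normalization. miR-125b-5p read 1152 and 1457 on PBS and 1712 and 2085 on trastuzumab arrays in BT474, and 357 against 412 and 368 in SKBR3. Its normalized change was 0.21 ± 0.06 in BT474 and -0.37 ± 0.07 in SKBR3, a difference that passed the interaction test (limma adjusted p = 0.0290), so that the common value of -0.02 ± 0.14 describes neither line. With no normalization between arrays the common values were 0.38 for miR-125b-5p and 0.42 for miR-125a-5p. For miR-125a-5p the changes were 0.17 ± 0.06 and -0.20 ± 0.07 (limma interaction adjusted p = 0.0855). miR-205-5p, which targets ERBB3, read 111 and 111 on BT474 PBS and 234 and 270 on trastuzumab arrays, and was not detected in SKBR3.

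The arms of miR-4728, whose hairpin lies in an intron of ERBB2, were detected in different lines. miR-4728-3p read 166 and 67.7 on the BT474 PBS arrays and 0.1 on both trastuzumab arrays, and was not detected in SKBR3. miR-4728-5p read 44.7 on the SKBR3 PBS array and 97.9 and 52.0 after trastuzumab, and was not detected in BT474. Neither could therefore show a change common to both lines.

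The 3 brightest miRNAs, miR-4454, let-7a-5p and miR-21-5p, cannot show a change after quantile normalization while they keep their rank. miR-4454 read 27346 to 27442 on all 7 arrays, near the ceiling of the scanner. let-7a-5p read 17013 and 20176 on PBS and 21270 and 22848 on trastuzumab arrays in BT474 and 10644 against 14935 and 12926 in SKBR3, yet its normalized change was 0, since its rank was the same on the arrays of a line.

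The 4 miRNAs with the largest interaction of line and treatment are given by line, since their changes differed between the lines. miR-574-5p read 521 and 540 on BT474 PBS and 248 and 646 on trastuzumab arrays, and in SKBR3 0.1 against 220 and 236 (limma interaction adjusted p = 0.0135). miR-3591-3p, from the strand opposite the liver miRNA miR-122, read 247 and 246 against 111 and 221 in BT474 and 0.1 against 163 and 106 in SKBR3 (limma interaction adjusted p = 0.00486). miR-1281 read 216 and 177 against 53.8 and 120 in BT474 and 0.1 against 84.0 and 74.6 in SKBR3 (limma interaction adjusted p = 0.00899). miR-762 read 53.1 to 67.4 on all BT474 arrays, and in SKBR3 58.1 on PBS and 0.1 on both trastuzumab arrays (limma interaction adjusted p = 0.00253). Each SKBR3 value of these rests on the 1 PBS array.

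The matched sequences of the raised miRNAs had letters in common. The 4 letters GGUG, chosen after the sequences were seen and counted on the mature strand, stood in all 7 matched raised miRNAs, in 36 of the 248 matched miRNAs tested (14.5%) and in 194 of the 1687 matched miRNAs on the array (11.5%), and not in miR-4530. Among the matched miRNAs detected on all arrays, however, the 22 with these letters had a median common change of -0.20 with 7 above 0, and the 120 without them a median of -0.01. G made up a median of 58.8% of the bases of the 7 raised miRNAs, from 22.7% in miR-29c-5p to 72.2% in miR-1268a, and 28.9% of those tested. Across the 142 matched miRNAs detected on all arrays the share of G had a Spearman correlation of -0.242 with the common change, as a description over miRNAs that share arrays and base composition.

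The precision is limited by 7 arrays and by the single SKBR3 control. Each of the 13 miRNAs kept its direction in every alternative in which it was tested. The same sign in the 3 pairs of arrays that share a slide column follows from the separation within each line and adds nothing to it. The number of the 13 with an adjusted p under 0.05 fell on leaving out single arrays. It was 2 without BT474 PBS replicate 1, 0 without BT474 PBS replicate 2, 7 and 5 without BT474 trastuzumab replicates 1 and 2, and 3 and 5 without SKBR3 trastuzumab replicates 1 and 2, while all 13 kept an unadjusted p under 0.05 in these fits (limma). Without the SKBR3 PBS array, where the fit rests on BT474, the number was 12. The 13 were chosen by their p in these same arrays. Keeping an unadjusted p under 0.05 with 1 array left out is therefore no separate support.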

How the data were processed

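Total RNA of BT474 and SKBR3 cells was hybridised by the authors to 1-colour Agilent miRNA arrays. The deposited scanner files (Feature Extraction 11.5.1.1, per the file headers) hold the intensity of each spot, the total gene signal that the software sums from them for each miRNA, also as an intensity, and flags for detection, background and saturation. The deposited series table holds the authors' log2 values, whose normalization is not fully stated, and was used as an alternative.

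Of 62344 spots per array, 60180 probed 2006 miRNAs. A miRNA at the floor of 10 on all 7 arrays was not tested. Models were fitted with limma 3.58.1 (lmFit and eBayes, R 4.3.3) on log2 quantile normalized signals, with all p-values two-sided and Benjamini-Hochberg adjusted over 305 miRNAs. Counts, lists and figures were made in Python 3.11.15 (pandas 2.3.3, numpy 2.4.6, matplotlib 3.10.9). The fits were tested on simulated data. The arrays were on 1 slide and from 1 scan, and their number limits the precision. The labels call the replicates biological.

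miRNAs were named by size among those called and separated in both lines (10 in each direction at most), by detection on every array of 1 treatment only, by the 4 largest interactions, by the 3 highest mean signals, and as 9 miRNAs tied to HER2 in earlier work. Other miRNAs are examples of a count or were chosen after their values were seen. The members and lists were chosen with earlier results of these data known. Where a miRNA was not detected in a group no fold of its summed signal is given, since its size depends on the floor and the normalization, and probe folds are ratios of mean background-subtracted intensities. Alternatives were other scalings, background correction, floors, filters, tests and left-out arrays.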

Additional observations from a re-analysis of the deposited data

Results flagged for a closer look

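The change in SKBR3 differed from that in BT474 by the interaction test of limma for 18 of the miRNAs named above, given here as the SKBR3 change minus the BT474 change on the log2 scale. Among miRNAs that fell in both lines, miR-3676-5p fell less in SKBR3 (0.61, adjusted p = 0.0198) and miR-130b-3p fell more (-0.56, adjusted p = 0.0153). Among other miRNAs detected on all arrays the difference was -0.68 for miR-29a-3p and -0.51 for miR-29c-3p (adjusted p = 0.0410 for each), -0.58 for miR-125b-5p (adjusted p = 0.0290) and 1.18 for miR-1260b (adjusted p = 0.0200).

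Not detected in SKBR3 were miR-499a-5p (-3.46, adjusted p = 7.945e-05), miR-1825 (3.59, adjusted p = 0.000294), miR-450a-5p (-2.49, adjusted p = 0.00253), miR-181c-5p (-2.36, adjusted p = 0.00561), miR-4290 (2.23, adjusted p = 0.0410), miR-205-5p (-1.11, adjusted p = 0.0135) and miR-1 (-1.01, adjusted p = 0.0222). For these miRNAs no SKBR3 change could be measured. Their SKBR3 value was 0 because every array of that line was at the floor, so the difference repeats the BT474 change. Arrays at the floor have no spread, which lowers the SE, so these p values do not show a different response. The remaining 5 rest on a signal at the floor on the SKBR3 PBS array or the SKBR3 trastuzumab arrays, and their sizes depend on the floor. One of them, miR-191-3p, was also at the floor on every BT474 array. They were miR-574-5p at 5.73 (adjusted p = 0.0135), miR-1281 at 5.50 (adjusted p = 0.00899), miR-3591-3p at 5.06 (adjusted p = 0.00486), miR-762 at -3.81 (adjusted p = 0.00253) and miR-191-3p at -2.69 (adjusted p = 0.000127).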

How the results depend on the processing

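All 13 miRNAs kept their direction under every alternative that tested them, but the number with an adjusted p under 0.05 (limma) depended on the processing, and the cause was not tested. The 10 higher and 3 lower miRNAs became 5 and 0 with scaling to the 75th percentile, 30 and 12 with normexp background correction, and 3 and 0 with all 8 labels as deposited. They became 0 and 0 with the deposited log2 values (159 miRNAs at an unadjusted p under 0.05), with no filter (55) and with the replicate block (35). The lower count was 0 with no normalization between arrays and with spike-in scaling, 5 with a floor of 30, 10 among miRNAs detected on all 7 arrays, 9 with robust eBayes and 5 with the methods' t-test. Leaving out 1 array gave 0 to 37 higher and 0 to 33 lower, with 0 of each without BT474 PBS replicate 2 (34 at an unadjusted p under 0.05) and the highest counts without the SKBR3 PBS array, when the fit rests on BT474.

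At the thresholds of the study, the 16 higher became 2 with normexp, 7 among miRNAs detected on all arrays, 10 with no filter, 10 with the t-test, and 9 to 18 without 1 array. The 2 lower became 8 with the 75th percentile, 4 with quantile normalization within each line, 9 with no normalization, 9 with spike-in scaling, 10 with the deposited values, 4 with a floor of 1, 10 with all 8 labels and 4 with robust eBayes. They became 0 with normexp, detection on all arrays, no filter, the replicate block and the t-test, and 0 to 21 without 1 array.

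The 22 miRNAs changed in both lines became 12 with spike-in scaling, 53 with normexp, 13 with all 8 labels and 20 to 34 without 1 array. The 1 that remained after adjustment became 2, 11, 3, 6, 3 and 6 with spike-in scaling, normexp, a floor of 1, detection on all arrays, all 8 labels and robust eBayes, 0 under 8 others (75th percentile, quantile within each line, no normalization, deposited values, floor of 30, no filter, block, t-test), and 0 to 7 without 1 array. The 49 miRNAs whose lines differed became 25 with no normalization, 27 with spike-in scaling, 88 with normexp, 0 with the deposited values, 23 among those detected on all arrays, 8 with no filter, 5 with all 8 labels, 11 with the block and 29 to 74 without 1 array. The median common change of -0.03 moved to 0.28 with no normalization and 0.17 with spike-in scaling, and lay between -0.07 and 0 without 1 array.

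Directions that turned belonged to miRNAs without a common call. With the 75th percentile miR-21-5p was at -0.13 and miR-125b-5p at 0.035. miR-125b-5p was at 0.38 with no normalization, 0.27 with spike-in scaling, 0.086 with normexp and 0.15 with the deposited values. With all 8 labels miR-205-5p was at -0.26, miR-21-5p at -0.14 and miR-1281 at -0.095. miR-1281 was at -0.045 with normexp, -0.20 with the deposited values and -0.23 with a floor of 30, and miR-4728-5p at -0.013 with normexp and -0.21 with the deposited values. Over fits without 1 array, miR-574-5p ran from -0.69 to 2.38, miR-3591-3p from -0.88 to 1.73 and miR-1281 from -1.71 to 1.07, with the lowest value of each without the SKBR3 PBS array. miR-125b-5p was at 0.21 without that array and at 0.0014 and 0.024 without SKBR3 trastuzumab replicates 1 and 2. miR-4728-5p ran from -0.11 to 0.14, without SKBR3 trastuzumab replicates 1 and 2. miR-125a-5p ran from -0.044 to 0.18, below 0 without BT474 PBS replicate 1, BT474 PBS replicate 2 or BT474 trastuzumab replicate 1.

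Within a line, PBS and trastuzumab arrays of the same replicate number shared a slide column, in 2 pairs in BT474 and 1 in SKBR3. Only BT474 allowed a check. There the deviations of same-numbered arrays correlated at 0.297 over the 173 miRNAs detected on all arrays and at 0.101 over the 305 tested. With the replicate number as a block, 0 miRNAs passed the adjusted threshold. An unadjusted p under 0.05 was seen for 35 of the 305 tested (limma), all 13 among them. In that fit miR-125b-5p was at 0.0021 and miR-4728-5p at -0.10.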
